A study of Mus musculus with 46 samples.

Results

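A group of 10 genes of the actin cytoskeleton and of focal adhesions was followed in RNA-seq counts of mouse embryonic fibroblasts (MEFs). The genes were Tln1, Tes, Flnc, Tpm2, Svil, Rai14, Wasl, Capza2, Rock1 and Myo10. They were chosen by name, as genes of this system that lie in the 4 chromosome segments where the row identifiers of the deposited table follow the genes they name, and that averaged at least 5 normalized CPM (counts scaled to the size of the library). All 10 met that minimum, out of 8986 rows of the table that passed a filter on low counts and were tested. Of these 8986 rows, 372 lie in the 4 segments.

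The cells were ATF4 KO MEFs or wild type MEFs, and each was kept for 7 h with 600 nM borrelidin or with its vehicle, DMSO, which all cultures received at 1% v/v. Borrelidin blocks threonyl-tRNA synthetase, so that uncharged tRNA accumulates, and ATF4 is the transcription factor whose translation rises in the amino acid response that follows. The libraries were 12 of ATF4 KO with borrelidin, 11 of ATF4 KO with vehicle, 12 of wild type with borrelidin and 11 of wild type with vehicle. The wild type cells were purchased and the ATF4 KO line was made in house by CRISPR/Cas9 editing and cell sorting, so genotype and cell line cannot be told apart, and whether the line is a single clone is not given in the sources used here. Replicates were separate cultures of these lines, so each p-value covers the spread between cultures.

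Fibroblasts hold on to their matrix through focal adhesions, in which integrins of the membrane are tied to actin filaments by adaptor proteins such as talin. The filaments are nucleated by the Arp2/3 complex and by formins, stopped at their fast-growing ends by capping protein, stabilised by tropomyosins, crosslinked by filamins, and pulled by myosin II under the control of kinases. Many genes of this system are known to be transcribed under the serum response factor with its MRTF partners and under the YAP and TEAD pair, which both respond to the state of the filaments.

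Several facts of the whole series bear on the 10 genes. Assigned counts ranged from 2626605 to 3320558 per library in ATF4 KO with borrelidin, from 2444047 to 3388068 in ATF4 KO with vehicle, from 2047362 to 3043804 in wild type with borrelidin and from 2476005 to 3467765 in wild type with vehicle, and on average 69.0% of reads overlapped no feature. Outside the segments the row of the abundant elongation factor Eef1a1 held 0.0133 CPM, so no gene is named there, and the row of Atf4 lies there too, so the loss of ATF4 was not checked and is not analysed here. A set of 14 libraries stood apart from the others of their own group on the second principal component, which held 21.9% of the variance. They were 3 of the 12 of ATF4 KO with borrelidin (replicates 1 to 3), 3 of the 11 of ATF4 KO with vehicle (replicates 1 to 3) and 8 of the 11 of wild type with vehicle (replicates 1 to 8), and 0 of wild type with borrelidin. Without them only 3 libraries of wild type with vehicle are left, so in wild type this set and the vehicle largely cannot be told apart, and fold changes of the 10 genes are given with all libraries and without the set. Of 17 fibroblast markers 5 lie in the segments, and their summed level had medians of 738 CPM in ATF4 KO with borrelidin, 1013 CPM in ATF4 KO with vehicle, 653 CPM in wild type with borrelidin and 879 CPM in wild type with vehicle, most of it from Cav1 and Sdc2. Col15a1 was below 1 CPM on average. The markers of epithelium (2 in the segments), muscle (1) and melanocytes (1) had group medians of at most 0.268 CPM, whereas 10 neural and glial markers summed to group medians of 35.3 to 41.1 CPM and 3 immune markers, mainly Cd72, to 83.2 to 129 CPM.

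All 10 genes are protein-coding, and positions are those of GENCODE M21 on GRCm38. Tln1 (4:43531519-43562691, minus strand) and Tpm2 (4:43514711-43523765, minus strand) lie within 1 neighbourhood of chromosome 4. Tes (6:17065149-17105828, plus strand), Capza2 (6:17636234-17666972, plus strand), Wasl (6:24613805-24665009, minus strand) and Flnc (6:29433256-29461883, plus strand) lie on chromosome 6. Rai14 (15:10568969-10714624, minus strand) and Myo10 (15:25622525-25813673, plus strand) lie on chromosome 15, and Svil (18:4920540-5119299, plus strand) and Rock1 (18:10064401-10182045, minus strand) complete the list. Tln1 overlaps Creb3 on the opposite strand, Tes overlaps the antisense gene Gm4876 and Rai14 the antisense gene Gm10389, and Wasl, Rock1 and Myo10 hold small gene models on their own strand. The strand setting of the counting is not given in the sources used here, so reads of such partners cannot be told apart.

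Per kb of exon, taken as the joined length of all annotated exons of a gene, Flnc and Tln1 had the highest levels of the 10 genes. This length can exceed that of the transcript a cell makes, so the order of levels is approximate. Whether the counts of a gene cover all of its exons was not tested, and on average 69.0% of reads overlapped no feature. For Rock1 the exon length was 18.1 kb, the longest of the 10. Over the 46 libraries Flnc averaged 265 CPM per kb, Tln1 227 CPM per kb, Tpm2 194 CPM per kb and Capza2 147 CPM per kb. Myo10 averaged 99.0 CPM per kb, Rai14 58.4 CPM per kb, Tes 58.3 CPM per kb and Wasl 49.3 CPM per kb, so that Rai14 and Tes had nearly the same level. Rock1 with 19.1 CPM per kb and Svil with 10.9 CPM per kb were lowest. Raw counts of the 10 genes in a library ranged from 151, for Svil, to 12787, for Flnc.

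Since several of these genes moved in the same direction with borrelidin in ATF4 KO cells, their promoters were searched on both strands for 5 motifs. RefSeq windows on GRCm38.p6 reach from 250 bases before to 50 bases after a start, and 11 such windows matched 8 of the 10 genes; Rock1 and Svil had none. The ATF4 element, spelled TTGCATCA or TTTCATCA, was in 0 of the 11 windows and in 1.90% of the 32851 promoters of the table. The CArG box of the serum response factor was in 0 of them and in 1.63% of all promoters, and the AP-1 motif TGACTCA in 0 of them and in 5.20% of all promoters. The TEAD motif GGAATG was in 4 of the 11 windows, of 3 genes, Flnc, Rai14 and Myo10, and in 14.7% of all promoters. The core of the cAMP response element TGACGT was in 2 of the 11 windows, both of Flnc, and in 7.51% of all promoters. The 2 windows of Flnc overlap and hold the same matches, so they do not count separately. The motifs do not overlap each other in these windows. A match is a description and not a binding site. The windows of Tes, Flnc and Wasl are shown because Tes and Flnc fell and Wasl rose with borrelidin in ATF4 KO cells, with motif matches in capitals, as follows. Flnc has 2 windows that overlap, and 1 is shown. In it the TEAD motif is read on the minus strand, with its first base 104 bases before the start of this window's transcript, and the response element core begins 82 bases before it. Counted from the start of the other window, the same matches lie at -1 and 22.
Tes, GRCm38.p6 6:17064899-17065198, plus strand: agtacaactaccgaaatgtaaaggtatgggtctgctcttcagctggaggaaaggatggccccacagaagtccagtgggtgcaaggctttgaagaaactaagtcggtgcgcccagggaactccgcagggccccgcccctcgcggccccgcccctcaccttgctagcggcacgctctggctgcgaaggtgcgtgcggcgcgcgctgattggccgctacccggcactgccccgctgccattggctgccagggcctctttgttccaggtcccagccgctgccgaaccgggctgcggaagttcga
Flnc, GRCm38.p6 6:29433006-29433305, plus strand: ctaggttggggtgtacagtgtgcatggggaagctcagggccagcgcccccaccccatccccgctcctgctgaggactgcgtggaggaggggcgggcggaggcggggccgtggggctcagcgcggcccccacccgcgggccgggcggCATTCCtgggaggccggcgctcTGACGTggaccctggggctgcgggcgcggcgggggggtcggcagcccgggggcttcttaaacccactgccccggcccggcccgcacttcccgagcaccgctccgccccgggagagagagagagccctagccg
Wasl, GRCm38.p6 6:24664946-24665245, minus strand: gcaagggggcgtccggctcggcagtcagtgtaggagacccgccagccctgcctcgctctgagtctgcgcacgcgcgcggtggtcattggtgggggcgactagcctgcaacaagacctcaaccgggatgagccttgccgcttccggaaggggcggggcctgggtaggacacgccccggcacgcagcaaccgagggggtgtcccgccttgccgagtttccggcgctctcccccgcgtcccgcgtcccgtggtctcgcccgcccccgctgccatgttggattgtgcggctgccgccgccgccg

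The first comparison asked how the genes respond to borrelidin in the ATF4 KO line. Talin, testin, filamin C, beta tropomyosin and supervillin transcripts fell and N-WASP transcripts rose. In edgeR's quasi-likelihood test over all 8986 rows, 1 of the 10 genes rose and 5 fell at an adjusted p under 0.05, where 15.0% of all tested rows rose and 15.3% fell. The median log2 fold change of the 10 genes was -0.23, against -0.03 over all rows and 0.04 over the 372 rows of the segments. Without the 14 libraries set apart, 1 rose and 7 fell, where 21.7% of all rows rose and 20.1% fell. Of the 372 rows of the segments, 98 rose and 63 fell with all libraries. Of the 374 tested there without the set, 120 rose and 90 fell. In a bulk sample fewer cells of a kind and less RNA per cell cannot be told apart. At an adjusted p of 1e-10, a threshold the study used for its own linear model of ATF4 activity and which 0.490% of rows passed here, edgeR called 0 of the 10 genes, limma voom 0 and DESeq2 1 (Wasl). At an unadjusted p under 0.05 edgeR had 7 of the 10 genes and 39.8% of all rows.

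The same was asked of wild type cells. With all libraries 1 of the 10 genes rose (Wasl) and 3 fell (Tln1, Svil and Myo10), where 26.5% of all rows rose and 32.9% fell. The median log2 fold change of the 10 genes was -0.08, against -0.06 over all rows and 0.18 over the 372 rows of the segments. Of these 372 rows, 157 rose and 65 fell, so the segments differed from the whole table. Of the 374 rows tested there without the set, 61 rose and 41 fell. Without the libraries set apart, 1 gene rose (Flnc) and 1 fell (Tes), where 9.99% of rows rose and 8.70% fell, so that none of the 4 genes called with all libraries was called. At 1e-10 edgeR, limma voom and DESeq2 each called 0 of the 10 genes, and edgeR called 2.11% of all rows. At an unadjusted p under 0.05 edgeR had 4 of the 10 genes and 63.3% of all rows.

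The difference of the 2 responses, ATF4 KO minus wild type, passed the test for 4 of the 10 genes: it was higher for Wasl and Myo10 and lower for Tes and Capza2, where 17.1% of all rows were higher and 16.5% lower. Among the 372 rows of the segments the difference was higher for 56 and lower for 107. Among the 374 tested there without the set it was higher for 35 and lower for 38. Without the libraries set apart it was lower for 2, Tln1 and Flnc, and higher for 0 of the 10 in edgeR, the only tool run on these libraries, where 3.62% of rows were higher and 6.28% lower. At an unadjusted p under 0.05 it was then higher for 1 of the 10 (Wasl) and for 10.2% of rows. In the fits without further terms no gene of the 10 passed both with and without the set. With the replicate number as a block and all libraries, 5 passed (Tes, Flnc, Capza2, Svil and Myo10), where 40.6% of rows did. With the set as a factor 2 passed, Flnc at -0.88 and Tln1 at -0.28 (edgeR adjusted p = 0.0498 for Tln1), where 20.4% of rows did. Replicates 5 and 10 of wild type with borrelidin had the highest share of reads not aligned, up to 15.0%, and without them the difference passed for 1 of the 10, Tes, where 34.1% of rows passed. At 1e-10 the test of the difference called 0 of the 10 genes with edgeR, limma voom and DESeq2 each, and 0.501% of rows with edgeR. At an unadjusted p under 0.05 edgeR had 5 of the 10 genes and 44.9% of all rows.

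**Figure D1:**
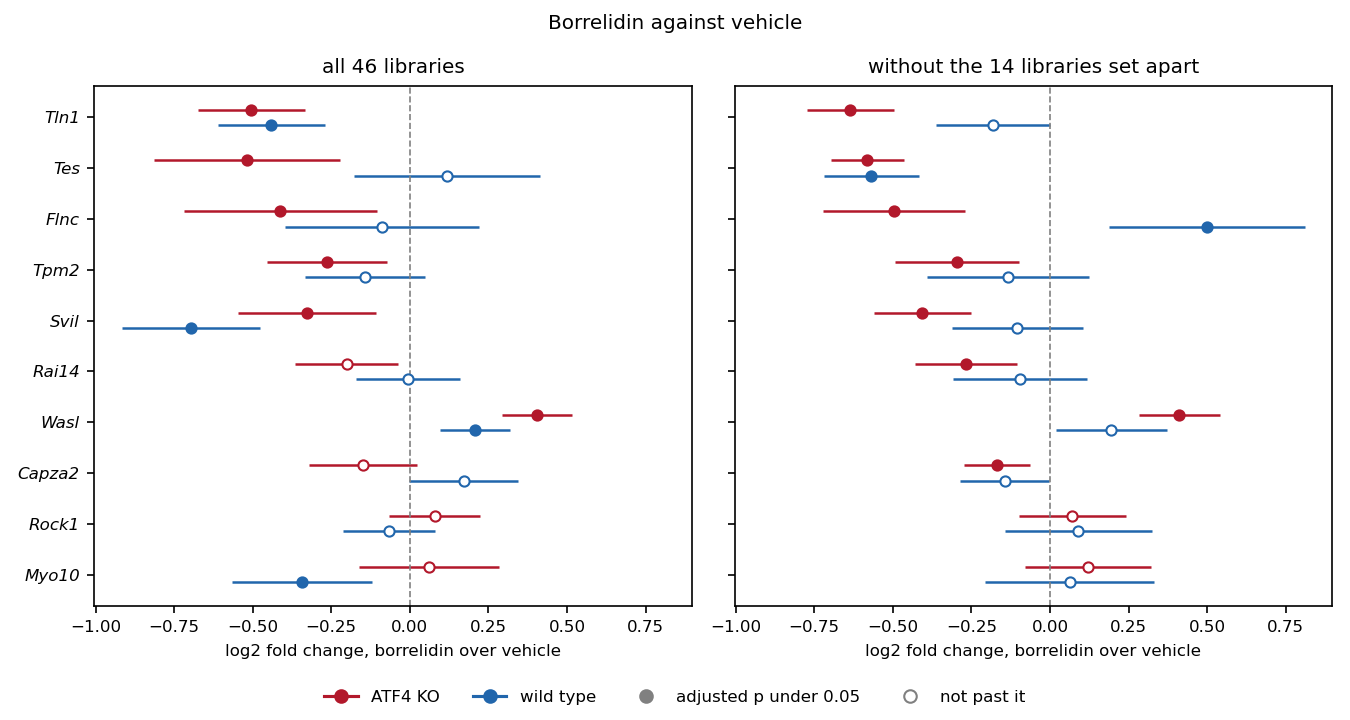
Log2 fold change of the 10 genes, borrelidin over vehicle, in ATF4 KO (red) and wild type (blue), with 95% intervals of edgeR's fit; filled points passed an adjusted p of 0.05. With all 46 libraries (left) 6 genes passed in ATF4 KO and 4 in wild type, and without the 14 libraries set apart (right) 8 passed in ATF4 KO and 2 in wild type.

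The lines were then compared with each other, with and without drug. Under borrelidin 3 of the 10 genes were higher in ATF4 KO (Tln1, Wasl and Rock1) and 2 were lower (Tpm2 and Rai14), where 25.7% of all rows were higher and 24.1% lower. Under vehicle 4 were higher in ATF4 KO (Tln1, Tes, Capza2 and Rock1) and 2 were lower (Tpm2 and Rai14), where 18.1% of rows were higher and 17.2% lower. Without the libraries set apart 4 were higher and 3 lower under borrelidin, where 27.1% of rows were higher and 27.2% lower, and 5 were higher and 1 lower under vehicle, where 10.9% were higher and 10.3% lower. With all libraries, 105 of the 372 rows of the segments were higher and 43 lower under vehicle, and 98 and 105 under borrelidin. Among the 374 tested there without the set, 58 were higher and 41 lower under vehicle, and 132 and 105 under borrelidin. At 1e-10 edgeR called 0 of the 10 genes under both treatments, and called 5.49% of rows under borrelidin and 2.63% under vehicle. At an unadjusted p under 0.05 edgeR had 6 of the 10 genes under each, where 55.3% of rows passed under borrelidin and 44.6% under vehicle. There limma voom and DESeq2 also had 6 under each. At 1e-10 limma voom called 0 in both, and DESeq2 called 1 (Rock1) under borrelidin and 0 under vehicle. These comparisons share their libraries with the borrelidin responses and are not independent of them.

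**Figure D2:**
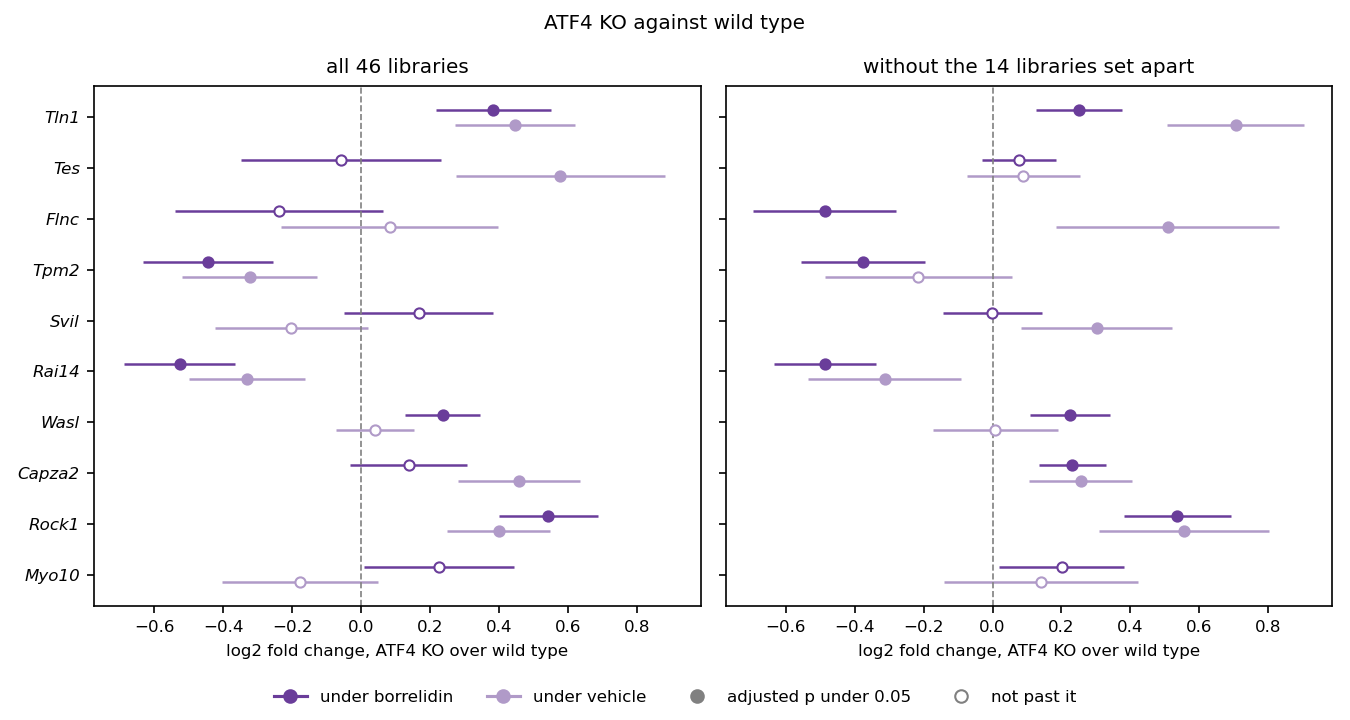
Log2 fold change of the 10 genes, ATF4 KO over wild type, under borrelidin (dark) and under vehicle (light), with 95% intervals of edgeR's fit; filled points passed an adjusted p of 0.05. Tln1 and Rock1 lay above 0 and Rai14 below 0 and passed the test under both treatments, with all 46 libraries (left) and without the 14 set apart (right).

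Talin 1, encoded by Tln1, binds integrin tails, switches integrins to their active state and links them to actin. Tln1 had 1619 CPM in the lowest, 2017 CPM in the median and 2793 CPM in the highest library of ATF4 KO with borrelidin, against 2460, 2983 and 3374 CPM in ATF4 KO with vehicle. In wild type it had 1381, 1630 and 2027 CPM with borrelidin, against 1724, 2158 and 2942 CPM with vehicle. Both pairs of groups overlapped, through the 3 ATF4 KO libraries set apart with borrelidin, at 2483 CPM or more, and through 1 wild type library with borrelidin, replicate 5, at 2027 CPM. Tln1 fell to 0.705 times its vehicle level in ATF4 KO (log2 fold change -0.50, SE 0.085, adjusted p = 7.71e-06, n = 12 against 11), and to 0.737 times in wild type, -0.44 (SE 0.085, adjusted p = 2.72e-05, n = 12 against 11). Without the libraries set apart the fold change was -0.64 in ATF4 KO, where the groups no longer overlapped, and -0.18 in wild type, which did not pass the test. The difference of the responses was -0.06 (SE 0.120, adjusted p = 0.704) with all libraries and -0.45, which passed, without the set. With the set as a factor it was -0.28 (SE 0.106, adjusted p = 0.0498) and only just passed. With the replicate number as a block it was -0.08 and did not pass. Tln1 was higher in ATF4 KO than in wild type by 0.38 under borrelidin (SE 0.083, adjusted p = 0.000144) and by 0.45 under vehicle (SE 0.087, adjusted p = 4.62e-05) on the log2 scale, and by 0.25 and 0.71 without the set, both past the test.

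Testin, encoded by Tes, is a LIM domain protein of focal adhesions and stress fibres. Tes had 249, 392 and 431 CPM in the lowest, median and highest library of ATF4 KO with borrelidin, against 300, 569 and 691 CPM in ATF4 KO with vehicle. In wild type cells the levels were 331, 378 and 437 CPM with borrelidin, against 243, 279 and 586 CPM with vehicle. These ranges held a separate pair of levels in 3 of the 4 groups. The libraries set apart had 249 to 259 CPM in ATF4 KO with borrelidin, 300 to 321 CPM in ATF4 KO with vehicle and 243 to 288 CPM in wild type with vehicle. The other libraries of these groups had 347 to 431 CPM, 510 to 691 CPM and 534 to 586 CPM in the same order, so that the set and the rest did not overlap in any of the groups. Tes fell in ATF4 KO, with a log2 fold change of -0.52 (SE 0.147, adjusted p = 0.00527), and had 0.12 in wild type (SE 0.148, adjusted p = 0.502). Without the set it was -0.58 in ATF4 KO and -0.57 in wild type, both past the test and with no overlap of the groups. The difference of the responses, -0.64 (SE 0.209, adjusted p = 0.0166) with all libraries, was -0.01 (95% interval -0.21 to 0.18) without the set and did not pass. Likewise the higher level in ATF4 KO under vehicle, 0.58 (SE 0.151, adjusted p = 0.00201), was 0.09 without the set and did not pass, and under borrelidin the difference was -0.06 (SE 0.144, adjusted p = 0.750), and 0.078 without the set, not past the test. With the set as a factor Tes passed in wild type at -0.44, and was higher in ATF4 KO by 0.14 under borrelidin and 0.21 under vehicle, both past the test.

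**Figure D3:**
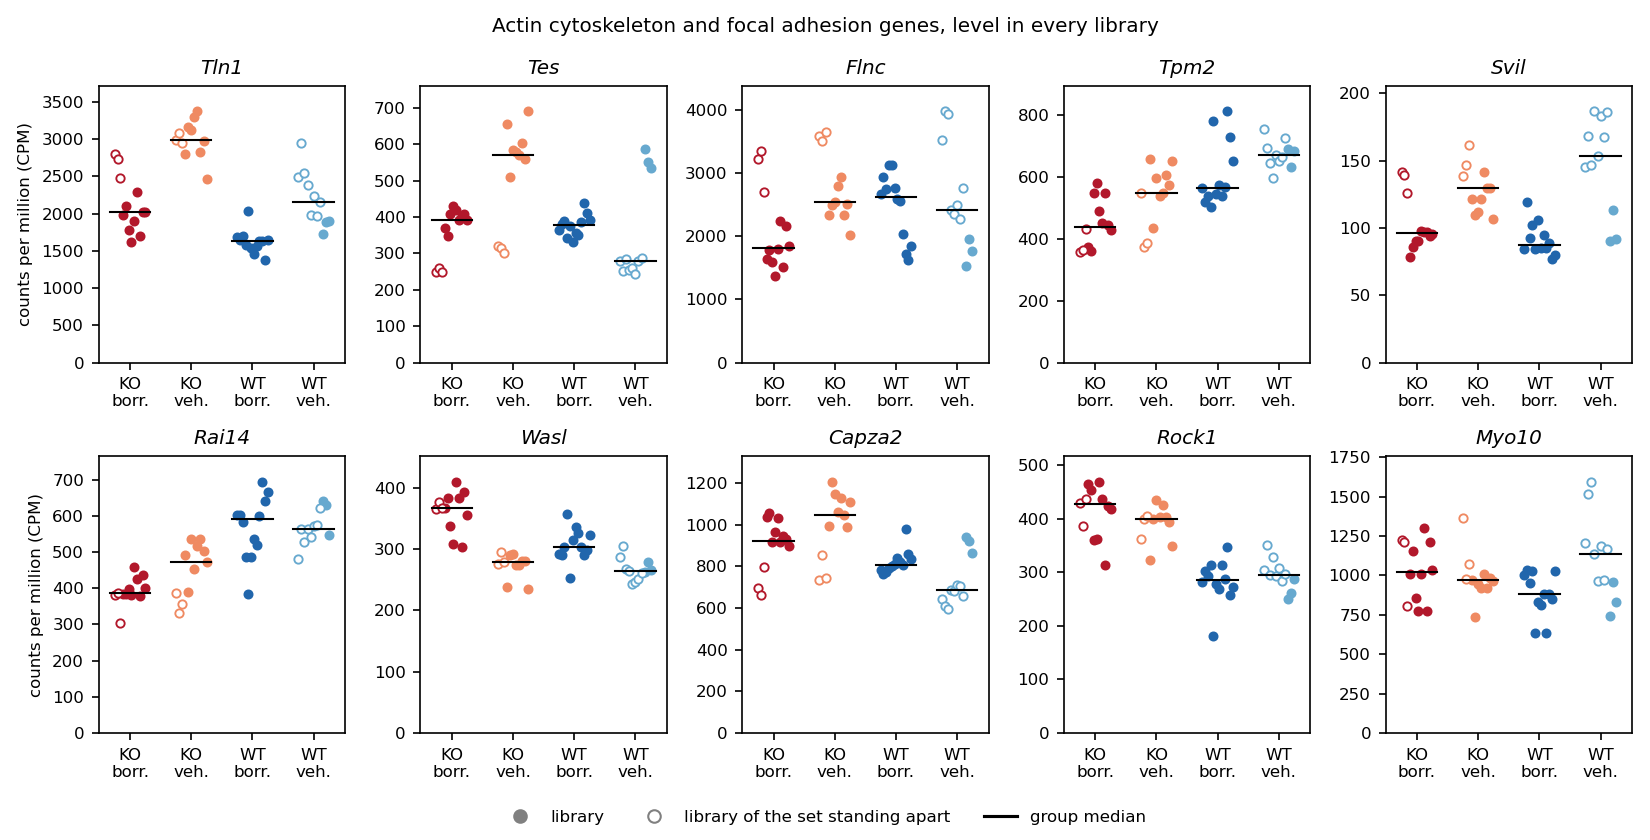
Level of the 10 genes in each of the 46 libraries, in CPM, by group, with open circles for the 14 libraries set apart and a line at the median of each group. The open circles of Tes lie below the filled ones in all 3 groups that hold them, and the 2 ATF4 KO groups of Wasl do not overlap.

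Filamin C, encoded by Flnc, crosslinks actin filaments and is best known from muscle. Flnc had 1367, 1815 and 3340 CPM in the lowest, median and highest library of ATF4 KO with borrelidin, against 2014, 2538 and 3652 CPM in ATF4 KO with vehicle. Wild type cells had 1619, 2623 and 3122 CPM with borrelidin, against 1528, 2417 and 3975 CPM with vehicle. The groups overlapped in both, and the libraries set apart were the highest, with 2691 to 3340 CPM in ATF4 KO with borrelidin, 3505 to 3652 CPM in ATF4 KO with vehicle and 2277 to 3975 CPM in wild type with vehicle. Flnc fell in ATF4 KO, with a log2 fold change of -0.41 (SE 0.153, adjusted p = 0.0359), and had -0.09 in wild type (SE 0.153, adjusted p = 0.630). Without the set it was -0.50 in ATF4 KO and 0.50 in wild type, both past the test, and the difference of the responses, -0.32 with all libraries (SE 0.217, adjusted p = 0.243), was -0.996 and passed. The 3 remaining wild type libraries with vehicle had 1528, 1768 and 1958 CPM. Between the lines Flnc passed no test with all libraries, at -0.24 under borrelidin and 0.08 under vehicle. Without the set the differences were -0.49 and 0.51, both past the test. In the fit blocked on replicate number, the difference under borrelidin, -0.26, and that of the responses, -0.38, passed. With the set as a factor all 3 passed, at -0.46 under borrelidin, 0.42 under vehicle and -0.88 for the responses.

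Beta tropomyosin, encoded by Tpm2, winds along actin filaments and stabilises them. Tpm2 had 357, 436 and 578 CPM in the lowest, median and highest library of ATF4 KO with borrelidin, against 373, 547 and 657 CPM in ATF4 KO with vehicle. In wild type it had 503, 564 and 811 CPM with borrelidin, against 594, 669 and 753 CPM with vehicle. The treatment groups overlapped in both lines. Tpm2 fell in ATF4 KO, with a log2 fold change of -0.26 (SE 0.095, adjusted p = 0.0302), and had -0.14 in wild type (SE 0.095, adjusted p = 0.193). Without the set these were -0.29, past the test, and -0.13, not past it, and with the set as a factor the wild type value was -0.31 and passed. Tpm2 was below wild type in ATF4 KO, at -0.44 on the log2 scale under borrelidin (SE 0.093, adjusted p = 9.14e-05) and at -0.32 under vehicle (SE 0.097, adjusted p = 0.00713). Without the set it was -0.38, past the test, under borrelidin and -0.22, not past it, under vehicle.

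Supervillin, encoded by Svil, ties actin and myosin II to the membrane, and had the lowest level of the 10. Svil had 78.5, 96.1 and 141 CPM in the lowest, median and highest library of ATF4 KO with borrelidin, against 107, 130 and 162 CPM in ATF4 KO with vehicle. Wild type cells had 76.7, 87.1 and 119 CPM with borrelidin, against 90.5, 153 and 187 CPM with vehicle. In wild type with vehicle the 8 libraries set apart had 145 to 187 CPM and the other 3 had 90.5 to 113 CPM, within the range of wild type with borrelidin. Svil fell in ATF4 KO, with a log2 fold change of -0.33 (SE 0.109, adjusted p = 0.0176), and in wild type, with -0.70 (SE 0.109, adjusted p = 8.44e-07). Without the set it was -0.41 in ATF4 KO, past the test and with no overlap of the groups, and -0.10 in wild type, not past it. The difference of the responses was 0.37 with all libraries, past the test when the replicate number was a block and not otherwise, and -0.30 without the set, not past it. Between the lines Svil passed no test with all libraries, at 0.17 under borrelidin and -0.20 under vehicle. Without the set these were -0.00041 and 0.30, and only that under vehicle passed.

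Rai14 encodes an ankyrin repeat protein of actin bundles, and its level differed between the lines under both treatments. Rai14 had 305, 386 and 459 CPM in the lowest, median and highest library of ATF4 KO with borrelidin, against 332, 473 and 536 CPM in ATF4 KO with vehicle. Wild type libraries held 385, 591 and 694 CPM with borrelidin, against 479, 564 and 639 CPM with vehicle. Its log2 fold change with borrelidin was -0.20 in ATF4 KO (SE 0.082, adjusted p = 0.0561) and -0.01 in wild type (SE 0.082, adjusted p = 0.952). In ATF4 KO it passed the test with the replicate number as a block, also at -0.20, and without the set, at -0.27. In wild type it was -0.09 without the set and did not pass. Rai14 was below wild type in ATF4 KO, at -0.53 under borrelidin (SE 0.080, adjusted p = 3.05e-07) and at -0.33 under vehicle (SE 0.084, adjusted p = 0.00137) on the log2 scale. It also passed both tests without the set, at -0.49 and -0.31.

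N-WASP, encoded by Wasl, activates the Arp2/3 complex, which starts branched actin filaments. Wasl had 304, 368 and 410 CPM in the lowest, median and highest library of ATF4 KO with borrelidin, against 235, 278 and 295 CPM in ATF4 KO with vehicle. Every ATF4 KO library with borrelidin lay above every one with vehicle, and Wasl was the only one of the 10 genes without such an overlap when all libraries were used, where 2.50% of all rows had none. In wild type 0 of the 10 genes and 6.25% of rows had none. Without the set there was no overlap for 4 genes in ATF4 KO (Tln1, Tes, Svil and Wasl), where 14.3% of rows had none, and for 1 in wild type (Tes), where 11.1% had none. In wild type it had 253, 303 and 358 CPM with borrelidin, against 243, 264 and 305 CPM with vehicle, and these groups overlapped. Wasl rose to 1.32 times its vehicle level in ATF4 KO (log2 fold change 0.40, SE 0.056, adjusted p = 1.34e-07), and to 1.15 times in wild type, 0.21 (SE 0.056, adjusted p = 0.00142). The libraries set apart differed from the others of their group by 0.04 in ATF4 KO with borrelidin, 0.06 in ATF4 KO with vehicle and -0.02 in wild type with vehicle on the log2 scale. Without them the response was 0.41 in ATF4 KO, past the test, and 0.20 in wild type, not past it with 3 vehicle libraries. The difference of the responses was 0.20 (SE 0.078, adjusted p = 0.0458) with all libraries and 0.22 (95% interval 0.00 to 0.43), not past the test, without the set, and with the replicate number as a block it was 0.19 and did not pass. Wasl was higher in ATF4 KO than in wild type under borrelidin, by 0.24 (SE 0.054, adjusted p = 0.000275), and by 0.22, past the test, without the set. Under vehicle the lines differed by 0.04 (SE 0.057, adjusted p = 0.609), and by 0.0079 without the set.

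Capza2 encodes an alpha subunit of capping protein, which closes the fast-growing end of the filament. Capza2 had 665, 924 and 1056 CPM in the lowest, median and highest library of ATF4 KO with borrelidin, against 737, 1046 and 1208 CPM in ATF4 KO with vehicle. Wild type cells had 764, 809 and 978 CPM with borrelidin, against 597, 685 and 940 CPM with vehicle. As for Tes, the libraries set apart were lower than all others of their group in the 3 groups that hold them. The log2 ratio of the set over the rest was -0.43 in ATF4 KO with borrelidin, -0.48 in ATF4 KO with vehicle and -0.46 in wild type with vehicle. The log2 fold change with borrelidin was -0.15 in ATF4 KO (SE 0.086, adjusted p = 0.193) and 0.17 in wild type (SE 0.086, adjusted p = 0.0811), and the difference, -0.32 (SE 0.121, adjusted p = 0.0373), passed the test. When the replicate number was a block, the wild type value was 0.18 and passed, and with the set as a factor both responses passed, at -0.15 in ATF4 KO and -0.14 in wild type. Without the set the responses were -0.17, past the test, and -0.14, and their difference was -0.02 (95% interval -0.20 to 0.15). Capza2 was higher in ATF4 KO under vehicle, by 0.46 (SE 0.088, adjusted p = 3.74e-05), and by 0.26, past the test, without the set. Under borrelidin the lines differed by 0.14 (SE 0.084, adjusted p = 0.170), and by 0.23, past the test, without the set.

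Rock1 encodes a kinase that drives myosin II contraction of stress fibres. Rock1 had 313, 426 and 469 CPM in the lowest, median and highest library of ATF4 KO with borrelidin, against 324, 400 and 434 CPM in ATF4 KO with vehicle. Wild type libraries held 182, 285 and 347 CPM with borrelidin, against 251, 295 and 350 CPM with vehicle. Between treatments the ranges overlapped widely, and between lines only at their edges. Borrelidin gave log2 fold changes of 0.08 in ATF4 KO (SE 0.072, adjusted p = 0.441) and -0.07 in wild type (SE 0.073, adjusted p = 0.443), and of 0.07 and 0.09 without the set, neither past the test. Rock1 was higher in ATF4 KO than in wild type by 0.54 under borrelidin (SE 0.071, adjusted p = 9.79e-09) and by 0.40 under vehicle (SE 0.074, adjusted p = 2.28e-05), and by 0.54 and 0.56, both past the test, without the set.

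Myosin X, encoded by Myo10, is a motor that carries cargo to the tips of filopodia. Myo10 had 772, 1023 and 1303 CPM in the lowest, median and highest library of ATF4 KO with borrelidin, against 733, 974 and 1362 CPM in ATF4 KO with vehicle. In wild type it had 633, 883 and 1034 CPM with borrelidin, against 742, 1136 and 1596 CPM with vehicle, and the highest values of the last group came from libraries of the set. Its log2 fold change was 0.06 in ATF4 KO (SE 0.111, adjusted p = 0.721) and -0.34 in wild type (SE 0.111, adjusted p = 0.00719), and the difference was 0.40 (SE 0.157, adjusted p = 0.0417). Without the set these were 0.12, 0.06 and 0.06, and none passed. Between the lines Myo10 passed neither test, at 0.23 under borrelidin and -0.18 under vehicle, nor without the set, at 0.20 and 0.14. With the replicate number as a block it passed under borrelidin, at 0.24.

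Across the 10 genes the libraries set apart differed from the others of their group in both directions. Flnc was higher in the set by 0.80 on the log2 scale in ATF4 KO with borrelidin, 0.52 in ATF4 KO with vehicle and 0.76 in wild type with vehicle, and Svil by 0.56, 0.29 and 0.76. Tes was lower in the set, at -0.65, -0.93 and -1.06 in the same groups. The set did not overlap the rest in any of the 3 groups for Tes, Flnc and Capza2, as for 22.5% of all rows, and overlapped it in all of them for Tpm2, Wasl and Rock1, as for 39.1% of all rows. Averaged over the 3 groups, the log2 ratio was 0.69 for Flnc, 0.54 for Svil, 0.30 for Myo10, 0.27 for Tln1, 0.073 for Rock1 and 0.028 for Wasl. It was -0.23 for Tpm2, -0.25 for Rai14, -0.45 for Capza2 and -0.88 for Tes. In ATF4 KO with vehicle alone, Tln1 (-0.00013) and Rock1 (-0.0093) were just below 0. The part of exon length in the set was not tested, nor what the set is.

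**Figure D4:**
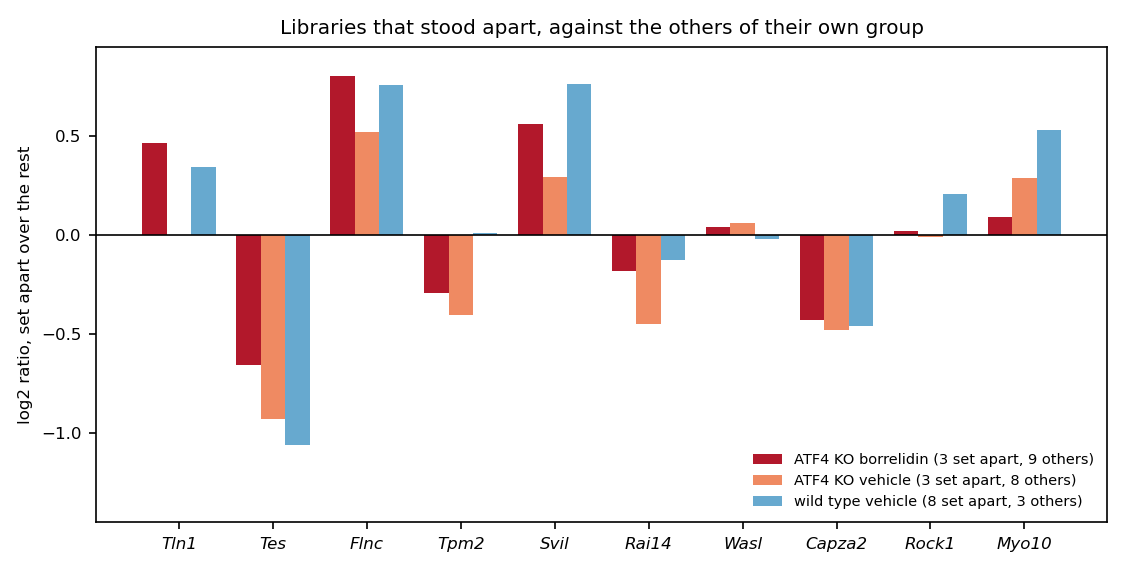
Log2 ratio of the mean level in the libraries set apart over that in the other libraries of the same group, for the 10 genes in the 3 groups that hold such libraries. Flnc and Svil were above 0 and Tes and Capza2 below 0 in all 3 groups.

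Beyond the 10, a list of 190 genes of integrins, adhesion adaptors, filaments, nucleation and contraction was counted where it lies in the segments. It has 14 further genes there, of which 12 were tested, and the genes that a count includes are named after it. With borrelidin in ATF4 KO 3 of the 12 rose (Basp1, Tesk1 and Coro2a) and 3 fell (Cav1, Met and Arhgap12), where 15.0% of all rows rose and 15.3% fell, and the same 6 genes passed without the set, where 21.7% rose and 20.1% fell. In wild type 3 rose (Basp1, Arhgap12 and Tmod1) and 4 fell (Cav1, Met, Arhgef39 and Trio), where 26.5% of rows rose and 32.9% fell. Without the set 2 rose there (Coro2a and Trio) and 3 fell (Cav1, Met and Arhgef39), where 9.99% rose and 8.70% fell. The difference of the responses was higher for 3 (Arhgef39, Tesk1 and Trio) and lower for 1 (Arhgap12), where 17.1% of rows were higher and 16.5% lower. It was higher without the set for 2 (Arhgef39 and Basp1) and lower for 2 (Arhgap12 and Cav1), where 3.62% were higher and 6.28% lower. Against wild type, 5 were higher in ATF4 KO under borrelidin (Cav1, Basp1, Arhgef39, Tesk1 and Coro2a) and 1 was lower (Sdc2), where 25.7% of rows were higher and 24.1% lower, and the same 6 genes passed without the set, where 27.1% were higher and 27.2% lower. Under vehicle 3 were higher (Cav1, Basp1 and Arhgap12) and 2 lower (Sdc2 and Arhgef39), where 18.1% of rows were higher and 17.2% lower. Without the set 3 passed, all higher (Cav1, Arhgap12 and Coro2a), where 10.9% of rows were higher and 10.3% lower. With the 10 genes included, the 3 tested genes of the focal adhesion adaptors and kinases, Tes, Met and Cav1, fell with borrelidin in ATF4 KO, and 3 of the 4 genes of nucleation, capping and turnover, Wasl, Tesk1 and Coro2a, rose. Trio had -0.58 in wild type (SE 0.168, adjusted p = 0.00301) and 0.40 without the set, past the test in the other direction, and the difference of its responses was 0.66 (SE 0.237, adjusted p = 0.0275) with all libraries and -0.18, not past the test, without the set.

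Cav1, which encodes caveolin 1 of the membrane pits called caveolae, had 352, 402 and 423 CPM in the lowest, median and highest library of ATF4 KO with borrelidin, against 488, 628 and 804 CPM in ATF4 KO with vehicle. Wild type cells had 248, 271 and 313 CPM with borrelidin, against 318, 436 and 486 CPM with vehicle. The ranges of the groups did not overlap in any of the 4 comparisons of groups, where 2.50% of rows did not overlap for borrelidin in ATF4 KO, 6.25% in wild type, 11.1% between the lines under borrelidin and 5.38% under vehicle. Cav1 fell with borrelidin by 0.70 on the log2 scale in ATF4 KO (SE 0.068, adjusted p = 2.84e-11) and by 0.59 in wild type (SE 0.069, adjusted p = 8.73e-10), and was higher in ATF4 KO under vehicle by 0.62 (SE 0.070, adjusted p = 4.63e-10). It passed these tests without the set as well, at -0.80, -0.46 and 0.84. The difference of its responses was -0.11 with all libraries and -0.35, past the test, without the set. Met, the receptor of hepatocyte growth factor, fell by 0.55 in ATF4 KO (SE 0.086, adjusted p = 1.61e-06) and by 0.41 in wild type (SE 0.086, adjusted p = 8.57e-05), and by 0.62 and 0.42 without the set, both past the test.

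Basp1, a membrane protein of growth cones, rose with borrelidin by 0.58 in ATF4 KO (SE 0.121, adjusted p = 0.000186) and by 0.57 in wild type (SE 0.121, adjusted p = 9.61e-05) on the log2 scale. Without the set it was 0.60, past the test, in ATF4 KO and 0.24, not past it, in wild type. The difference of these responses was 0.01 with all libraries, and passed without the set, at 0.36, and with the set as a factor, at 0.46. It was higher in ATF4 KO under vehicle by 0.43 (SE 0.123, adjusted p = 0.00477), and at 0.25 without the set did not pass. Tesk1, a kinase that phosphorylates cofilin, rose by 0.35 in ATF4 KO (SE 0.075, adjusted p = 0.000228) and had 0.03 in wild type, with a difference of 0.32 (SE 0.106, adjusted p = 0.0172) that was 0.30 and did not pass without the set. Without it the response of Tesk1 was 0.40, past the test, in ATF4 KO and 0.10, not past it, in wild type. The difference of its responses passed with the set as a factor, at 0.41, and with the replicate number as a block, at 0.33.

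A pair of GTPase regulators differed in response between the lines both with and without the set. Arhgef39, a guanine nucleotide exchange factor, fell in wild type by 0.98 (SE 0.124, adjusted p = 1e-08) and had -0.12 in ATF4 KO (SE 0.123, adjusted p = 0.493). The difference was 0.86 (SE 0.175, adjusted p = 0.000218) with all libraries and 0.67, past the test, without the set, where the responses were -0.56, past the test, in wild type and 0.12, not past it, in ATF4 KO. Its levels were 46.4 to 73.4 CPM in ATF4 KO with borrelidin, 49.7 to 101 CPM in ATF4 KO with vehicle, 32.3 to 62.1 CPM in wild type with borrelidin and 62.6 to 123 CPM in wild type with vehicle. Arhgap12, a GTPase activating protein, fell by 0.23 in ATF4 KO (SE 0.066, adjusted p = 0.00501) and rose by 0.20 in wild type (SE 0.067, adjusted p = 0.00776), with a difference of -0.44 (SE 0.094, adjusted p = 0.000393), and of -0.56, past the test, without the set. The responses were then -0.27, past the test, in ATF4 KO and 0.28, not past it, in wild type. Under vehicle Arhgap12 was higher in ATF4 KO by 0.46 (SE 0.068, adjusted p = 2.32e-07), and by 0.53, past the test, without the set.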

How the data were processed

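RNA of 46 MEF cultures was sequenced, and the file the authors deposited holds raw counts for each identifier of a gene, not normalized. Their methods name fastp, HISAT2 and feature counts, the submitters' processing notes name HISAT2, HTSeq, limma and mm10, and the sources used here give neither versions nor the strand setting or annotation release. Of 55416 identifiers, 52083 were found in GENCODE M21. Closing lines that name no gene (on average 69.0% no feature, 10.8% not aligned, 5.09% low quality, 3.97% not unique and 0.251% ambiguous) stayed out of library sizes and tests.

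Levels are TMM-normalized CPM. All 4 groups were fitted together in R 4.3.3 with edgeR 4.0.16 (filterByExpr, quasi-likelihood test, Benjamini-Hochberg over 8986 rows, call at 0.05), and SE is the fold change over the root of F. Alternatives used limma 3.58.1, DESeq2 1.42.0, the replicate block, the library set and thresholds, and tables were made in Python 3.11.15. On simulated counts of the 8986 rows, the borrelidin contrast in ATF4 KO recovered 52.0% of log2 changes of 0.5 and 91.9% of changes of 1, and the difference of the responses 19.6% and 64.9%. The simulated libraries were drawn independently and held no set that stands apart, so recovery in the presence of the set was not tested. Libraries were set apart where the widest gap of second component scores (500 most variable rows) exceeded 50% of the range of their group.

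The 10 genes, the 4 segments and the gene lists were chosen with earlier results of these data known. The 10 genes were named when at 5 CPM or more, and other listed genes when among the 3 smallest p of a comparison. Labels share replicate numbers between groups. Deviations from the group means had r above 0.1 for 11 of the 11 ATF4 KO pairs that share a number (0.20 to 0.79), and for 3 of the 11 wild type pairs. The set holds the same replicate numbers in both ATF4 KO groups, so these r values do not tell a pairing by number from the set. ATF4 KO pairs outside the set were not examined alone. Pairs of unlike numbers were not compared. All libraries of a group differed by more than sampling noise, with a chi-square of at least 1.89 per degree of freedom.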

Additional observations from a re-analysis of the deposited data

Results flagged for a closer look

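The response to borrelidin differed between ATF4 KO and wild type, by edgeR's test of the difference itself with all 46 libraries, for 4 of the 10 genes and 4 further listed genes. The difference, ATF4 KO minus wild type on the log2 scale, was -0.64 for Tes, -0.32 for Capza2, 0.40 for Myo10 and 0.20 for Wasl. For Tes, Capza2 and Myo10 it was -0.01, -0.02 and 0.06 without the libraries set apart, and for Wasl 0.22, and none of these passed the test. Without the set the difference passed instead for Flnc, at -0.996, and for Tln1, at -0.45. With the set as a factor Flnc passed at -0.88 (adjusted p = 3.41e-05 in edgeR's test) and Tln1 only just, at -0.28 (adjusted p = 0.0498). With the replicate number as a block Flnc passed at -0.38 and Svil at 0.37, whereas Wasl, at 0.19, did not. Among the listed genes the difference was 0.86 for Arhgef39, -0.44 for Arhgap12, 0.32 for Tesk1 and 0.66 for Trio. Without the set it was 0.67, -0.56, 0.30 and -0.18 in the same order, and those of Tesk1 and Trio did not pass. When the set was a factor, the difference of Tesk1 was 0.41 and passed, and that of Trio was -0.02 and did not. The part of the set in these values was not tested beyond leaving it out and fitting it as a factor.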

How the results depend on the processing

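Fold changes of the 10 genes and of the named listed genes were recomputed under the alternatives, 62 of them in most. With the median ratio normalization all 62 kept their direction and side of the threshold, with DESeq2 60 and with limma voom 61. With the replicate block 55 did, 6 came to pass and 1, the difference of the responses of Wasl at 0.19, no longer passed. The block raised the calls under borrelidin between the lines to 7 of the 10 genes, where 52.1% of rows passed. Without a filter on low counts 52 kept both, without the 14 libraries set apart 33, and with the set as a factor 41. Leaving out single replicates was not run, with 11 or 12 per group.

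Reversed without the libraries set apart were Tes (-0.57), Flnc (0.50), Capza2 (-0.14), Rock1 (0.091) and Myo10 (0.063) with borrelidin in wild type, Svil (-0.30) and Rock1 (-0.020) for the difference of the responses, Svil (0.30) and Myo10 (0.14) between the lines under vehicle, and Tes (0.078) and Svil (-0.00041) under borrelidin. With the set as a factor Tes (-0.44), Flnc (0.45) and Capza2 (-0.14) reversed in wild type, Tpm2 (0.049) and Svil (-0.057) for the difference, Svil (0.066) under vehicle and Tes (0.14) under borrelidin. Rai14 in wild type reversed without the filter (0.054) and without the 2 libraries with most reads not aligned (0.026), an alternative chosen after seeing the data.

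Of the 10 genes, 4 were called with borrelidin in wild type, against 2 without the set, 7 with the set as a factor (Tln1, Tes, Flnc, Tpm2, Svil, Wasl and Capza2, where 29.8% of rows passed) and 0 at 1e-10. In ATF4 KO 6 were called, against 3 without the filter (6.09% of 33929 rows) and 0 at 1e-10. For the difference 4 were called, against 1 without the filter (7.40% of rows), 2 without the set, 2 with the set as a factor (20.4%), 1 without the 2 libraries (34.1%) and 0 at 1e-10. Between the lines 6 were called under vehicle, and 0 at 1e-10, and under borrelidin 5 were called, against 8 with the set as a factor (54.7% of rows) and 0 at 1e-10. Without the filter more rows are tested; the other causes were not tested. The set leaves 3 wild type libraries with vehicle, which limits every wild type value without it.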
